A study of Mus musculus with 6 samples.

Results

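The genes described here drive and restrain the step from G1 into S phase: the D cyclins Ccnd2 and Ccnd3, the kinases Cdk4, Cdk6 and Cdk2, the E cyclins Ccne1 and Ccne2, the retinoblastoma gene Rb1, and the kinase inhibitors Cdkn2c and Cdkn2d. The genes were chosen by their function, with earlier results of these data known. Rows were found by matching Ensembl identifiers to current or older symbols. Of the 10 genes, 9 had a row among the 36811 of the FPKM table. Cdkn2d found no matching row, so its expression was not analysed here and only its promoter was read. All 9 passed the minimum mean of 1 FPKM (fragment counts corrected for the length of the transcript and the size of the library) and were tested.

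RNA was sequenced from regulatory T cells (Treg) of the spleen of C57BL/6 mice aged 18 to 21 weeks, sorted as GFP-positive cells after enrichment of CD4+ T cells. There were 3 libraries labelled cKO, genotype Bach2fl/fl Foxp3EGFP-Cre-ERT2, and 3 labelled WT, genotype Bach2+/+ Foxp3EGFP-Cre-ERT2. Both groups therefore carried the EGFP-Cre-ERT2 fusion expressed from Foxp3, whose product is the lineage factor of Treg, and differed in the floxed alleles of Bach2, which encodes a transcriptional repressor. Cre-ERT2 acts after tamoxifen, and such a treatment is not given in the sources used here. Nothing in the labels says that the libraries of a group came from separate mice, so a p-value here reflects only how far these libraries spread, which may be technical.

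D cyclins form when mitogens, antigen and IL-2 reach a T cell, and they activate Cdk4 and Cdk6. These kinases phosphorylate Rb, which otherwise holds back the E2F transcription factors. Freed E2F turns on Ccne1, Ccne2 and the genes of DNA replication, and cyclin E with Cdk2 completes the phosphorylation of Rb. The INK4 proteins, among them the products of Cdkn2c and Cdkn2d, bind Cdk4 and Cdk6 and block them. In lymphocytes cyclin D2, cyclin D3 and Cdk6 are the prominent forms, and mice without Cdkn2c have overgrown lymphoid organs.

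The 250 bases upstream of a RefSeq transcription start were read for the 7 genes present in the promoter table. They include Cdkn2d, which has no expression value here, but not Ccnd2, Ccne2 or Rb1. The promoters are of build GRCm38.p6, which is not the build of the expression values. The windows of Cdkn2c (the first of 2 starts), Cdk6 and Ccne1 are shown because these genes had higher values in every library labelled cKO than in any labelled WT, and that of Cdk2 because it alone held an E2F match. Capitals mark a match to any of 4 motifs on either strand, each sequence running 5′ to 3′ on the strand of the gene.
Cdkn2c, chr4:109666757-109667006, minus strand: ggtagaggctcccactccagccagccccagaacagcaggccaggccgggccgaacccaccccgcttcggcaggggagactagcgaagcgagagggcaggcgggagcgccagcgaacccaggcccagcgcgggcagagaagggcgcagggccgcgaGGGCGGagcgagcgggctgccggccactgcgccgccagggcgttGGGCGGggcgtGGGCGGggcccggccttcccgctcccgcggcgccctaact
Cdk6, chr5:3343643-3343892, plus strand: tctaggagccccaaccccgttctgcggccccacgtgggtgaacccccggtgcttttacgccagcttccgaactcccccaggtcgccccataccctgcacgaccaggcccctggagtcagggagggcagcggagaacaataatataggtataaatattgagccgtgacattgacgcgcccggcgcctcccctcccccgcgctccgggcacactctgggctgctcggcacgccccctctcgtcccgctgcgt
Ccne1, chr7:38107491-38107740, minus strand: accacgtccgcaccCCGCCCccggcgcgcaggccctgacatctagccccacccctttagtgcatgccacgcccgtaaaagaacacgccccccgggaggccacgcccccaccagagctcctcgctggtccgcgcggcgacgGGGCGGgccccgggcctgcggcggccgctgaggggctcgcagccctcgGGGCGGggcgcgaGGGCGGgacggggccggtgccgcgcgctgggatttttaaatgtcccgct
Cdk2, chr10:128705052-128705301, minus strand: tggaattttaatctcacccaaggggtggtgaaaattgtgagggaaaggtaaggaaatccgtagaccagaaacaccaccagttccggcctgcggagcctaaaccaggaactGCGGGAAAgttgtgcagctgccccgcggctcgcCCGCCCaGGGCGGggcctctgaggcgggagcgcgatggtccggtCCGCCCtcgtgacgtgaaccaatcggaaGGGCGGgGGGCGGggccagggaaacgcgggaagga
The motifs were E2F (TTTCCCGC or TTTGGCGC), the AP-1 element that Bach proteins can also bind (TGANTCA), the cell cycle homology region, CHR (TTTGAA), and Sp1 (GGGCGG). Among 9 windows of the 7 genes, 1 held an E2F match, that of Cdk2 at 140 to 133 bases before the start, against 1.3% of 32851 promoter windows of the same length. None held an AP-1 or CHR match, which 6.75% and 16% of all windows did. Sp1 matches were found in 7 of the 9, against 32.7% of all. The windows shown were richer in G and C than most, at 77.2% for Cdkn2c, 76% for Ccne1, 66% for Cdk6 and 63.2% for Cdk2, where the median of all windows was 52.4%. The second start of Cdkn2c, not shown, differed, with 42.8% G and C and no match to any of the 4 motifs. A match describes letters only, and a missing match says nothing about binding of the factor.

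FPKM summed to 1502822 to 1940807 per library, of which the 4 highest rows took 32.4% to 46.9% of a sum. The number of sequenced fragments is not given, and steps between low values gave a scale of about 3050000 to 5010000 fragments. Bach2 ranged from 6.44 to 9.19 FPKM with the cKO label and from 3.29 to 8.25 FPKM with the WT label, so the targeted gene was not lower and does not check the labels. Its deleted part is not given in the sources used here, and every direction below rests on the labels. Of the T cell markers, Cd4 lay between 318 and 474 FPKM and Foxp3 between 5.16 and 9.44 FPKM. Of the B cell markers, Ighm lay between 1019 and 2138 FPKM and Cd79b between 80.5 and 112 FPKM. In bulk samples, fewer cells of a type and less RNA per cell cannot be told apart.

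The levels of the G1 genes spanned a wide range. FPKM is scaled for transcript length, so levels of genes can be set side by side. Cdk4 was the most abundant, with a mean of 456 ± 76.5 FPKM (SD, n = 6 libraries), at percentile 97.5 of the genes tested. The D cyclins followed, Ccnd2 at 139 ± 10.4 FPKM and Ccnd3 at 99.3 ± 4.99 FPKM. Ranges over the 6 libraries did not overlap between Cdk4 and Ccnd2, Ccnd2 and Ccnd3, or Ccnd3 and the next gene, Rb1.

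The middle of the order was less distinct. Rb1 stood at 26.2 ± 8.06 FPKM, Cdkn2c at 20.5 ± 7.0 FPKM, Cdk2 at 12.8 ± 2.39 FPKM and Cdk6 at 8.69 ± 2.19 FPKM (SD, n = 6 each). Rb1 was above Cdkn2c in 5 of 6 libraries and Cdkn2c above Cdk2 in 5 of 6, with overlapping ranges over the 6 libraries. Within groups the order was clearer in part, since the ranges of Rb1 and Cdkn2c overlapped in cKO but not in WT, and those of Cdkn2c and Cdk2 in WT but not in cKO. Cdk2 was above Cdk6 in each of the 6 libraries although their ranges overlapped, within groups in cKO but not in WT. The E cyclins were lowest, Ccne1 at 4.18 ± 1.08 FPKM and Ccne2 at 1.62 ± 0.98 FPKM, and Ccne1 was the higher of them in each library. Ccnd3 varied least, with a coefficient of variation of 5.02%, and Ccne2 most, at 60.4%.

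**Figure D1:**
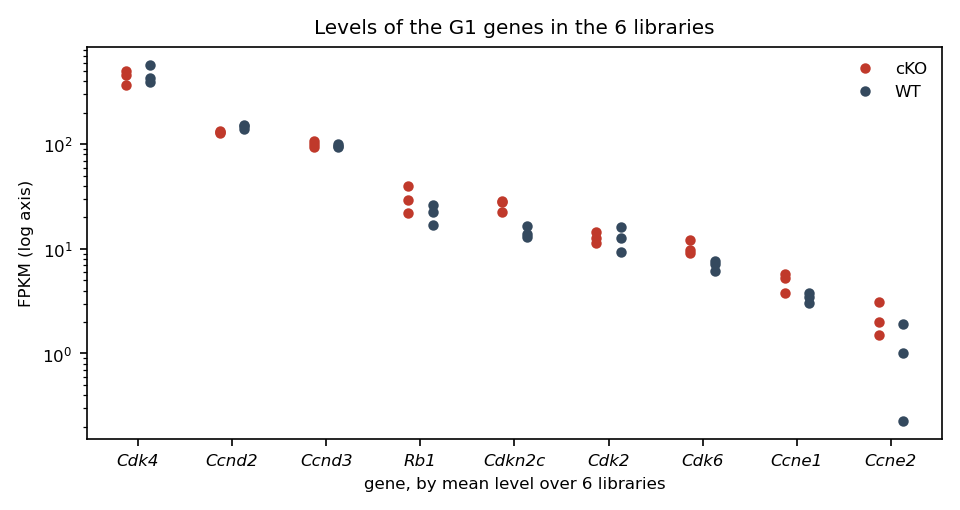
FPKM on a log axis for each of 9 G1 genes in the 6 libraries, ordered by mean level, with cKO and WT points side by side. Cdk4 and the D cyclins stand apart at the top, and Rb1, Cdkn2c, Cdk2 and Cdk6 run into each other.

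No G1 gene passed the test between the libraries labelled cKO and WT. Cdkn2c, Cdk6 and Ccne1 had higher values in each library labelled cKO than in any labelled WT, and Ccnd2 had lower ones. By limma on log2(FPKM + 1), 0 of 9 genes had a Benjamini-Hochberg adjusted p under 0.05, where 3 of 11979 genes did (0.025%). In simulated data the same test passed only 6.5% of 2-fold changes of FPKM + 1, set in genes above the level of Ccne2. At an unadjusted p under 0.05 there were 2 of 9, Cdkn2c and Cdk6, both higher, against 5.37% of all genes in either direction and 3.59% higher. The groups did not overlap in 3 of 9 upward and 1 of 9 downward, against 6.96% and 3.75% of all genes. The log2 difference was above 0 for 7 of 9 genes, against 6587 of all 11979, with a median of 0.42, beside 0.033 for all genes tested. That median was 0.055 with a minimum mean of 5 FPKM, which removes Ccne1 and Ccne2, 0.24 with a pseudocount of 5, 0.22 without cKO replicate 2 and, leaving out WT replicate 1, 0.27.

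**Figure D2:**
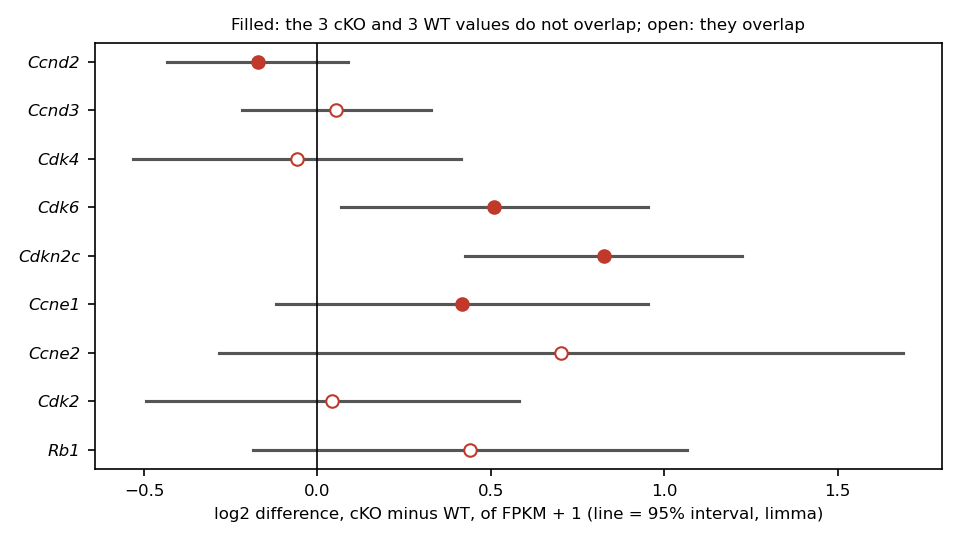
The log2 difference of FPKM + 1, cKO minus WT, for each of 9 G1 genes, with its 95% interval from limma as a line. The intervals of Cdkn2c and Cdk6 lie above 0, before adjustment for all genes tested, and those of the other 7 genes include 0.

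Of the D cyclins, Ccnd2 and Ccnd3 differed little in size between the groups. Ccnd2 (ENSMUSG00000000184, chromosome 6), the cyclin induced early by cytokines and antigen, measured 133, 128 and 132 FPKM in replicates 1, 2 and 3 of cKO, against 153, 150 and 139 FPKM in those of WT. Each library labelled cKO was below each labelled WT. The mean was 131 ± 2.48 against 148 ± 7.27 FPKM (SD, n = 3 each), which gave a log2 difference of -0.17 with a 95% interval from -0.43 to 0.089 (limma, adjusted p = 0.925). It was -0.017 with libraries scaled to equal sums, a scaling that moved the median of all genes to 0.18. Ccnd2 shares exon bases with annotated antisense genes that were not used here.

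Ccnd3 (ENSMUSG00000034165, chromosome 17), the cyclin on which dividing T cell precursors depend, had 101, 108 and 95.1 FPKM in the libraries of cKO, in the order of their numbers, and 94.3, 100.3 and 97.5 FPKM in the libraries of WT. The groups overlapped. Its log2 difference was 0.055 with an interval from -0.22 to 0.33 (limma, adjusted p = 0.976), and it was -0.036 after quantile normalization. Bysl shares 361 exon bases with Ccnd3 on the opposite strand and lay between 11.6 and 16.1 FPKM. The ratio of Ccnd2 to Ccnd3, a measure chosen after the values were seen, was 1.32, 1.19 and 1.38 in replicates 1, 2 and 3 of cKO and 1.63, 1.498 and 1.43 in those of WT. Ccnd2 was thus the more abundant D cyclin in each library, by a smaller margin in those labelled cKO.

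Of the kinases that D cyclins activate, Cdk6 stood higher and Cdk4 did not separate the groups. Cdk6 (ENSMUSG00000040274, chromosome 5) measured 12.2, 9.17 and 9.85 FPKM in replicates 1, 2 and 3 of cKO, against 7.11, 6.11 and 7.73 FPKM in those of WT. Each library labelled cKO was above each labelled WT, with cKO 1 highest. The mean was 10.4 ± 1.58 against 6.98 ± 0.818 FPKM (SD, n = 3 each), a ratio of 1.49. On the log2 scale the groups differed by 0.51 (standard error 0.186), with an interval from 0.067 to 0.95 (limma, unadjusted p = 0.0301, adjusted p = 0.915), and Cdk6 ranked 376 among 11979 genes by p. The difference stayed between 0.36 and 0.65 in 17 alternatives, and its interval lay above 0 in 12 of them. Cdk6 shares 368 exon bases with an annotated antisense gene that was not used here.

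Cdk4 (ENSMUSG00000006728, chromosome 10) had 458, 370 and 508 FPKM in the libraries of cKO, in the order of their numbers, and 428, 577 and 394 FPKM in the libraries of WT. The groups overlapped, and the highest value was in WT 2 and the lowest in cKO 2. A log2 difference of -0.059 had an interval from -0.53 to 0.41 (limma, adjusted p = 0.985), and it turned to 0.098 with equal sums, 0.11 with library quality weights, 0.068 without cKO replicate 2 and, leaving out WT replicate 2, to 0.10. Cdk4 was 37.5 to 51.6 times Cdk6 in FPKM in the libraries labelled cKO and 51.0 to 94.4 times in those labelled WT, ranges that overlap. Tspan31 shares 641 exon bases with Cdk4 on the opposite strand and lay between 76.6 and 100.3 FPKM. The strand setting is not given, so reads in the shared bases cannot be told apart.

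Cdkn2c (ENSMUSG00000028551, chromosome 4), the INK4 inhibitor of Cdk4 and Cdk6, had the smallest p of the G1 genes. It measured 22.7, 28.7 and 28.2 FPKM in replicates 1, 2 and 3 of cKO, against 13.1, 16.6 and 13.7 FPKM in those of WT. The groups were well apart, with the lowest library labelled cKO above the highest labelled WT. The mean was 26.5 ± 3.33 against 14.5 ± 1.86 FPKM (SD, n = 3 each), a ratio of 1.83. On the log2 scale the groups differed by 0.83 (standard error 0.167), with an interval from 0.43 to 1.23 (limma, unadjusted p = 0.00194, adjusted p = 0.748). It ranked 28 among 11979 genes by p and did not pass over all of them.

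The Cdkn2c difference stayed between 0.69 and 0.98 in 17 alternatives, and its interval lay above 0 in each, while the adjusted p was never under 0.279. About 125 to 355 fragments lay behind each value by the estimated scale and the longest annotated transcript, and no other annotated gene shares its exons. Cdk4 was 20.2, 12.9 and 18.1 times Cdkn2c in FPKM in replicates 1, 2 and 3 of cKO and 32.6, 34.7 and 28.7 times in those of WT, another ratio chosen after the values were seen. The kinase transcript was thus in excess of this inhibitor's in each library, and by less in those labelled cKO. Against Cdk6 the ratios overlapped, since Cdk6 was 0.320 to 0.538 times Cdkn2c in the libraries labelled cKO and 0.368 to 0.562 times in those labelled WT.

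**Figure D3:**
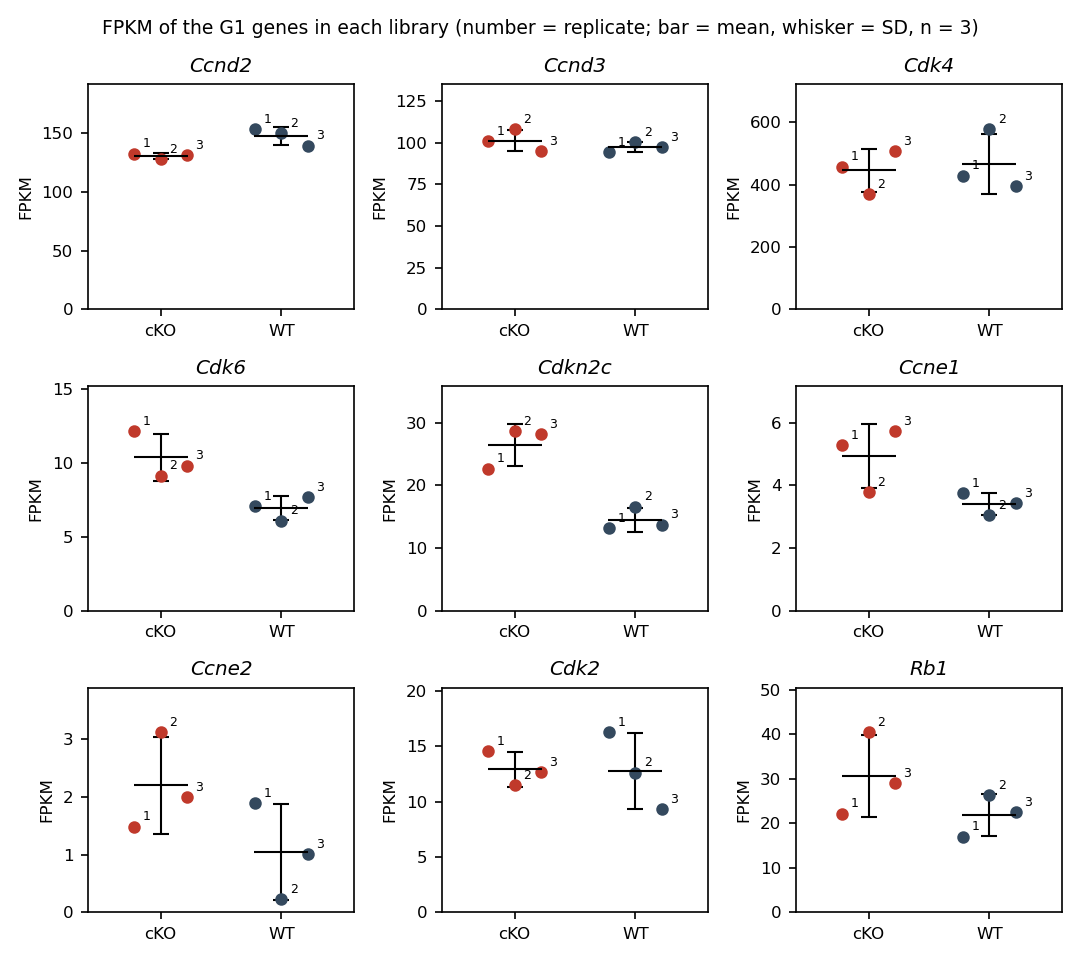
FPKM of 9 G1 genes, 1 panel each with its axis from 0, with a numbered point for each library, the mean as a bar and the SD as whiskers. Cdkn2c, Cdk6 and Ccne1 sit higher in the 3 libraries labelled cKO, Ccnd2 sits lower, and the other genes overlap.

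The E cyclins, partners of Cdk2 and targets of E2F, were low and their estimates wide. Ccne1 (ENSMUSG00000002068, chromosome 7) had 5.30, 3.79 and 5.73 FPKM in the libraries of cKO, in the order of their numbers, and 3.75, 3.05 and 3.43 FPKM in the libraries of WT. The groups did not overlap, but cKO 2 was barely above WT 1. The mean was 4.94 ± 1.02 against 3.41 ± 0.35 FPKM (SD, n = 3 each), a ratio of 1.45 and a log2 difference of 0.42 with an interval from -0.12 to 0.95 (limma, adjusted p = 0.925). About 19 to 45 fragments lay behind each value.

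Ccne2 (ENSMUSG00000028212, chromosome 4) measured 1.49, 3.12 and 1.99 FPKM in replicates 1, 2 and 3 of cKO, against 1.89, 0.225 and 1.01 FPKM in those of WT. The groups overlapped through WT 1, and about 2 fragments lay behind WT 2, against 47 behind cKO 2. The log2 difference was 0.70 with an interval from -0.28 to 1.69 (limma, adjusted p = 0.925). It was 0.38 without WT replicate 2, 1.30 with a pseudocount of 0.1 and 0.26 with a pseudocount of 5. Ints8 shares 609 exon bases with Ccne2 on the opposite strand and lay between 13.4 and 20.3 FPKM.

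Cdk2 (ENSMUSG00000025358, chromosome 10), the kinase that cyclin E activates, had 14.6, 11.5 and 12.6 FPKM in the libraries of cKO, in the order of their numbers, and 16.2, 12.6 and 9.35 FPKM in the libraries of WT. Values of the groups overlapped, and those labelled WT had both the highest and the lowest library. The log2 difference was 0.043 with an interval from -0.50 to 0.58 (limma, adjusted p = 0.996), and it turned to -0.079 with library quality weights, -0.042 without cKO replicate 1 and -0.15 without WT replicate 3.

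Rb1 (ENSMUSG00000022105, chromosome 14), the target of these kinases, measured 22.2, 40.4 and 29.1 FPKM in replicates 1, 2 and 3 of cKO, against 17.0, 26.4 and 22.5 FPKM in those of WT. The groups overlapped, with cKO 2 far above the rest. The mean was 30.5 ± 9.21 against 21.9 ± 4.71 FPKM (SD, n = 3 each), and the log2 difference was 0.44 with an interval from -0.19 to 1.06 (limma, adjusted p = 0.925). Leaving out cKO replicate 2 made it 0.22, and leaving out WT replicate 1 made it 0.27. On the opposite strand, Rcbtb2 shares 488 exon bases with Rb1, and Lpar6, which lies within Rb1, shares 408. Rcbtb2 was the more abundant, at 98.96 to 114 FPKM in the libraries of cKO and 73.8 to 111 FPKM in those of WT, with overlap and a log2 difference of 0.28 (limma, adjusted p = 0.925). Lpar6, a receptor of lysophosphatidic acid, had 11.1, 12.7 and 11.8 FPKM in the libraries of cKO, in the order of their numbers, and 7.12, 7.65 and 8.24 FPKM in the libraries of WT, with no overlap (limma, log2 difference 0.57, adjusted p = 0.863).

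Other regulators of G1 showed no common direction. Of 18 genes in that list 16 were tested, with 7 above 0 and 9 below, a median log2 difference of -0.11 beside 0.033 for all genes, and none past the threshold (limma, adjusted p). The sign of this median turned with equal sums (0.031) and without WT replicate 3 (0.025). Groups did not overlap in 2 of 16 downward, 1 of them Myc, against 3.75% of all genes. Upward it was 1 of 16, Ccnd1, which passed the filter only through its cKO values, against 6.96% of all genes. At an unadjusted p under 0.05 there was 1 of 16, near the 5.37% of all genes. It was Cks1b, a small kinase-binding protein that helps to degrade Cdkn1b. Cks1b measured 19.0, 34.4 and 34.6 FPKM in replicates 1, 2 and 3 of cKO, against 12.7, 14.1 and 21.6 FPKM in those of WT. The groups overlapped through WT 3, and the log2 difference was 0.81 (limma, adjusted p = 0.915).

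Myc, a transcription factor of growth, had 72.1, 73.9 and 82.8 FPKM in the libraries of cKO, in the order of their numbers, and 97.3, 100.4 and 85.7 FPKM in the libraries of WT. Its groups did not overlap, with the libraries labelled cKO lower, a log2 difference of -0.30 with an interval that included 0 (limma, adjusted p = 0.925). Ccnd1, the third D cyclin, was near the filter and measured 0.725, 2.68 and 1.73 FPKM in replicates 1, 2 and 3 of cKO, against 0.462, 0.516 and 0.594 FPKM in those of WT. It was higher in each library labelled cKO, with a log2 difference of 0.76 (limma, adjusted p = 0.925). Its mean in WT was 0.524 FPKM, so it passed the filter only through its cKO values, which by itself favours this direction. Ambra1, a substrate adaptor in the degradation of D cyclins, had a mean of 12.1 against 19.2 FPKM with overlapping groups (limma, log2 difference -0.70, adjusted p = 0.925).

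Of the other inhibitors, Cdkn1b, which binds cyclin E with Cdk2, had a mean of 15.3 against 14.7 FPKM, and Cdkn1a a mean of 4.78 against 6.73 FPKM, both with overlapping groups. Cdkn2a was listed at 0 in 5 of 6 libraries, at 0.36 FPKM in WT 3, and Cdkn2b reached at most 2.16 FPKM, in cKO 2. Neither was tested. Cdkn2c was thus the most abundant INK4 transcript among the 3 measured here, in each library.

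The E2F factors themselves were spread around 0. Of 10 E2F and DP genes 8 were tested, with 4 above 0 and 4 below. The median was -0.024, beside 0.033 for all genes, and turned to 0.12 with equal sums. None had an unadjusted p under 0.05 (5.37% of all genes). In none were the groups free of overlap (6.96% of all genes upward and 3.75% downward). With 8 genes, counts of 0 are near these shares. E2f4, a repressive E2F of resting cells, lay between 58.2 and 64.5 FPKM in the 6 libraries. E2f1, an activating member, had a mean under 1 FPKM and was not tested. By p, E2f8, Tfdp2, Tfdp1 and E2f3 came first, with log2 differences of 0.51, 0.13, -0.096 and -0.48 (limma, adjusted p from 0.925 to 0.974). E2f8 had a mean of 0.86 FPKM in WT and passed the filter only through its cKO values. E2f3 ranged from 0.87 FPKM in cKO 3 to 23.8 FPKM in WT 2.

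Targets of E2F in S phase entry were mostly above 0. Of 20 tested genes 17 were, against 6587 of all 11979, with a median of 0.28 beside 0.033 for all genes, none past the threshold, 4 higher at an unadjusted p under 0.05 (3.59% of all genes) and 6 higher with no overlap (6.96% of all genes). Prim1, a primase subunit, had a mean of 12.1 against 6.72 FPKM, Tyms, which makes thymidylate, 42.7 against 28.1 FPKM, Ccna2, cyclin A, 15.1 against 7.22 FPKM, and Mcm3, of the replicative helicase, 53.6 against 40.5 FPKM. Their log2 differences were 0.77, 0.60, 0.93 and 0.40 (limma, adjusted p from 0.915 to 0.925). The summed level came to 892, 578 and 808 FPKM in replicates 1, 2 and 3 of cKO and to 679, 689 and 540 FPKM in those of WT, with cKO 2 below WT 1 and WT 2.

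Of the 7 genes of the MuvB and B-Myb complex, which represses or activates cell cycle genes, 6 were above 0, against 6587 of all 11979. Their median was 0.28, beside 0.033 for all genes. Of the 7, 0 passed the threshold, and 0 had an unadjusted p under 0.05, where 5.37% of all genes had one (limma). Mybl2 had a mean of 5.29 against 2.09 FPKM, Rbbp4 196 against 165 FPKM, Lin37 114 against 91.0 FPKM and Lin54 5.51 against 8.43 FPKM. Their log2 differences were 1.06, 0.24, 0.31 and -0.56 (limma, adjusted p = 0.925 for each). The groups of Rbbp4 did not overlap. That is 1 of 7 genes higher with no overlap, beside 6.96% of all genes.

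Of the 6 cell cycle lists, mitotic genes had the median farthest from 0. All 12 tested were above 0, against 6587 of all 11979, with a median of 0.86 beside 0.033 for all genes. Of them 7 were higher at an unadjusted p under 0.05 (3.59% of all genes) and 7 higher with no overlap (6.96% of all genes). None passed the threshold. Bub1, in both counts, had a mean of 0.716 FPKM in WT and passed the filter only through its cKO values. Birc5, Aurkb, Ccnb1 and Ube2c had the smallest p, with log2 differences of 1.08, 0.87, 1.12 and 1.01 (limma, adjusted p from 0.748 to 0.874). The summed level of the 12 came to 202, 135 and 190 FPKM in replicates 1, 2 and 3 of cKO and to 98.3, 110 and 70.7 FPKM in those of WT. Every library labelled cKO was thus above every library labelled WT, and Cdkn2c, Cdk6 and Ccne1 were also higher in each library labelled cKO. Within cKO the sum was lowest in replicate 2, where Cdk6 and Ccne1 were lowest too, at 9.17 and 3.79 FPKM, but Cdkn2c was highest, at 28.7 FPKM. The part of cell division in their values was not tested.

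**Figure D4:**
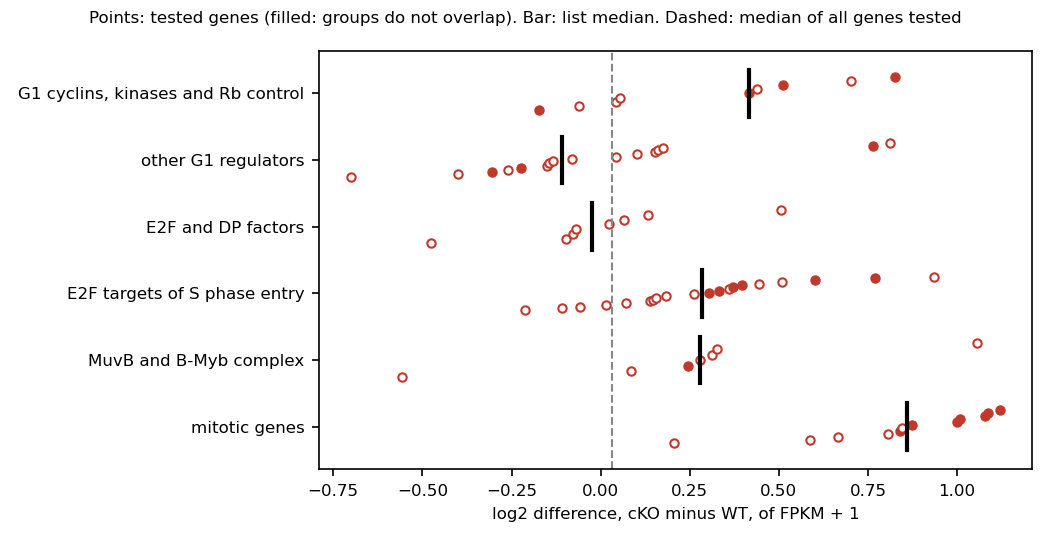
The log2 difference of FPKM + 1, cKO minus WT, of each tested gene in 6 lists, with filled points where the groups do not overlap, a bar at each list's median and a dashed line at the median of all genes (0.033). The medians are 0.42 for the G1 genes, -0.11 for other G1 regulators, -0.024 for E2F and DP factors, 0.28 for E2F targets, 0.28 for the MuvB complex and 0.86 for mitotic genes.

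Markers of other cells moved with the groups in part. Summed erythroid markers (7 genes) lay between 253 and 514 FPKM for cKO and between 94.7 and 230.4 FPKM for WT, and summed CD8 and NK cell markers (6 genes) between 105 and 131 FPKM and between 82.8 and 104 FPKM, neither with overlap. In the latter sum Nkg7 held the larger part, at 83.3 to 107 FPKM against 59.6 to 79.2 FPKM. Klrd1 went the other way with no overlap, at 0 to 0.546 FPKM against 1.35 to 3.46 FPKM, Klrb1c was also lower in each library labelled cKO, and Cd8b1 differed by 0.050 on the log2 scale. Among both lists, Cd8a, Ncr1 and Klrd1 were listed at 0 in some library, and none at 0 in each. Summed B cell markers (6 genes) lay between 1268 and 1948 FPKM against 1122 and 2282 FPKM, and myeloid markers (8 genes) between 206 and 884 FPKM against 174 and 299 FPKM, both with overlap and with Pax5, Cd14 and Ly6g at 0 in some library. Ly6g, at 0 in each library labelled WT, passed the filter only through its cKO values. The 8 T cell and Treg markers each had a log2 difference above 0, with a median of 0.15. Of them 0 passed the threshold, and 0 had an unadjusted p under 0.05, where 5.37% of all genes had one (limma). The part of these cells in the values of the G1 genes was not tested.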

How the data were processed

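RNA-seq values of 6 libraries, 3 labelled cKO and 3 labelled WT, were used. The FPKM values were deposited by the authors as 1 table of 36811 genes, made with cuffnorm according to its name. Library preparation was by SmartSeq2 and sequencing on an Illumina instrument, per the labels' protocols. The submitters' processing notes name FastQC, HISAT2 and cutadapt and the builds mm9 and NCBIM37. The sources used here do not give annotation, strand setting or filters. Symbols matched 31840 rows.

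Genes whose mean over the 6 libraries reached 1 FPKM entered a test on log2(FPKM + 1) by limma 3.58.1 (R 4.3.3), without a block and with its variance trend, p-values adjusted by Benjamini-Hochberg over all 11979 genes at 0.05. On this scale changes of low genes come out too small. Ratios of means are of FPKM. Intervals are at 95% and not adjusted. Overlaps of exons came from GENCODE M21 on GRCm38. The fragment scale was the commonest smallest step of FPKM times length among 1950 genes with 1 transcript of at least 2000 bases, and is an estimate. Tables and figures used Python 3.11.15, numpy 2.4.6, pandas 2.3.3 and matplotlib 3.10.9. The fit was tested on 5 simulated data sets per fold change, with 200 of 11979 genes changed. The change was applied to FPKM + 1. Changed genes were drawn from those with a mean log2(FPKM + 1) above 2, so the rates do not cover lower genes such as Ccne2. On average 6.5% of 2-fold and 78.7% of 4-fold changes passed, and 7.45% and 5.42% of the calls were false. A 2-fold change that did not pass may thus still be present.

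The genes and lists were chosen with earlier results of these data known. Of the erythroid markers, 1 is not reported here, and its list was summed without it. The naming rule took all G1 genes, Bach2, Foxp3 and up to 4 genes with the smallest p of each pathway list. Other names were chosen after their values were seen. They are Cdkn1a, Cdkn1b, Cdkn2a, Cdkn2b, E2f1, E2f4, Bub1, Cd4, Ighm, Cd79b, Nkg7, Klrd1, Klrb1c, Cd8b1, the genes that overlap a G1 gene, and the other cyclins and kinases. The alternatives changed the pseudocount (0.1, 5), the filter (none, 5 FPKM), the scaling (quantile, trimmed mean, equal sums), the variance trend (none, robust), the weights (by library quality) or the design (a replicate block), or left out 1 library.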

Additional observations from a re-analysis of the deposited data

How the results depend on the processing

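No G1 gene and no gene of the 5 pathway lists passed in any of 17 alternatives (limma, adjusted p). Of the G1 genes, Ccnd2, Cdk6, Ccne1, Ccne2, Rb1 and Cdkn2c kept their direction in each alternative in which they were tested, and Ccne1 and Ccne2 were not tested with a minimum of 5 FPKM. The count of 3 genes over all genes was 1 with the replicate block and ranged from 5 to 15 without 1 library, fits with fewer libraries or degrees of freedom. The labels do not state a pairing of libraries. Deviations from the group means did not go together in libraries of the same number, with correlations of -0.06, -0.18 and -0.017. Unequal numbers gave up to 0.13. Deviations within a group cancel each other, so these correlations are a weak check of pairing.

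Values of single genes that turned direction without passing on either side, cause not tested, were as follows. Ccnd3 differed by -0.036 after quantile normalization. With equal sums Cdk4 differed by 0.098 and Tfdp1 by 0.054. With library quality weights the difference was 0.11 for Cdk4, -0.079 for Cdk2 and -0.091 for Foxp3. Without 1 library, Cdk4 ranged from -0.17 to 0.10, Cdk2 from -0.15 to 0.22, Tfdp1 from -0.19 to 0.027, E2f3 from -1.05 to 0.44 and Foxp3 from -0.065 to 0.25. The median of E2F and DP factors turned to 0.12 with equal sums, to 0.029 with library quality weights and to between 0.0053 and 0.089 without cKO replicate 1 or 2 or WT replicate 1 or 2. That of other G1 regulators turned to 0.031 with equal sums and 0.025 without WT replicate 3, and that of all genes to -0.017 after quantile normalization and -0.0021 with trimmed-mean scaling. Depth limits Ccne2 and Ccne1 most.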

Other observations

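The cyclins and cyclin-dependent kinases outside the lists above were taken by symbol, and both kinds had genes on either side of 0. Of 13 other cyclins with a mean of at least 1 FPKM, 9 had a log2 difference above 0, against 6587 of all 11979 genes. Their median was 0.12, beside 0.033 for all genes, and 0 passed over all genes (limma, adjusted p). At an unadjusted p under 0.05 there was 1 of 13, where 5.37% of all genes had one. It was Ccnc, the cyclin of the Mediator kinase module. Ccnc had 22.3, 18.0 and 16.5 FPKM in the libraries of cKO, in the order of their numbers, and 7.67, 11.8 and 15.1 FPKM in the libraries of WT, with no overlap and a log2 difference of 0.70 (limma, adjusted p = 0.915). Ccng2, a cyclin found in resting cells, had a mean of 45.0 against 46.3 FPKM. Of 10 other kinases 5 were above 0, with a median of 0.0056, 0 passed over all genes (limma, adjusted p), and 0 had an unadjusted p under 0.05. Cdk9, which releases paused RNA polymerase II, lay between 96.5 and 155.6 FPKM in the 6 libraries. Cdk5 was the 1 kinase whose groups did not overlap, at 13.8 to 20.2 FPKM in the libraries labelled cKO and 12.8 to 13.6 FPKM in those labelled WT. That is 1 of 10 kinases, and Ccnc was 1 of 13 cyclins, beside 6.96% of all genes that were higher with no overlap.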
